A study of Aspergillus nidulans with 8 samples.

Results

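The orsellinic acid gene cluster of the filamentous fungus Aspergillus nidulans comprises orsA (AN7909), orsB (AN7911), orsC (AN7912), orsD (AN7913) and orsE (AN7914), which were found on the arrays by locus tag. All 5 genes were present, out of 11127 genes on the array, and all 5 were among the 11109 genes tested. Colonies started from stabs grew on agar plates in darkness, and the mycelium of whole colonies was taken. The groups are colonies on the media CYAs (days 4, 8 and 10), YES (days 4 and 10) and CYA (days 4, 8 and 10), with 1 array per medium and day and so 8 arrays in all. The labels spell out neither the media nor the strain, and YES is written YESs in the sample titles only.

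Fungal secondary metabolite genes commonly lie side by side and are switched on together. In this cluster a non-reducing polyketide synthase joins and cyclises acyl units into orsellinic acid, a simple aromatic acid also known from lichens, and neighbouring genes encode enzymes that can modify it. In A. nidulans the cluster is known as silent in many laboratory cultures and as induced by contact with a Streptomyces bacterium, through histone acetylation by the SAGA/ADA complex and the Myb-type regulator BasR.

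No array had a biological replicate, so no spread between cultures of one condition is known. The level of a gene is the log2 of its processed signal relative to the 75th percentile of the array, averaged over its probes (3 for each cluster gene), and levels of different genes are not comparable on this scale. The ± values beside single arrays are SDs over the 3 probes of a gene, which measure technical error within an array only. The 75th percentile of the signal ranged from 1483 to 4977 between arrays, no spot was saturated, and 10878 to 11114 genes were above background per array. The arrays lay on 2 slides. Slide 1 held YES days 4 and 10 and CYA days 4 and 8, and slide 2 held CYAs days 4, 8 and 10 and CYA day 10.

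The CYAs day 8 array stood apart from the other CYAs arrays. Of the genes, 180 exceeded their levels on both other CYAs arrays by at least 16-fold on CYA day 8. On CYAs day 8 these genes had a median share of 0.217 of their CYA day 8 signal (interquartile range 0.202 to 0.231). A share of that size of the CYA day 8 signal equals 30.4% of the orsB signal on CYAs day 8 and 4.02% to 8.67% of the signals of the other cluster genes. Estimates of the fit are therefore also given without this array where that moved them. Differences that need it are also given with that share of CYA day 8 signal taken off and the rest rescaled, an alternative chosen after seeing the data.

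All 5 cluster genes had lower levels on day 10 than on day 4 in each of the 3 media. For 5 of 5 genes every day 10 array lay below every day 4 array, a pattern met by 11.4% of all genes tested. The difference was at least 2-fold in all 3 media for 4 of 5 genes, against 2.6% of all genes, and orsB missed it on YES alone. This count was 2 of 5 in the authors' deposited table of log2 values. On CYA the lower level was already present on day 8, whereas on CYAs the levels of day 8 were nearer to those of day 4. None of these differences passed limma's test after adjustment over all genes.

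**Figure D1:**
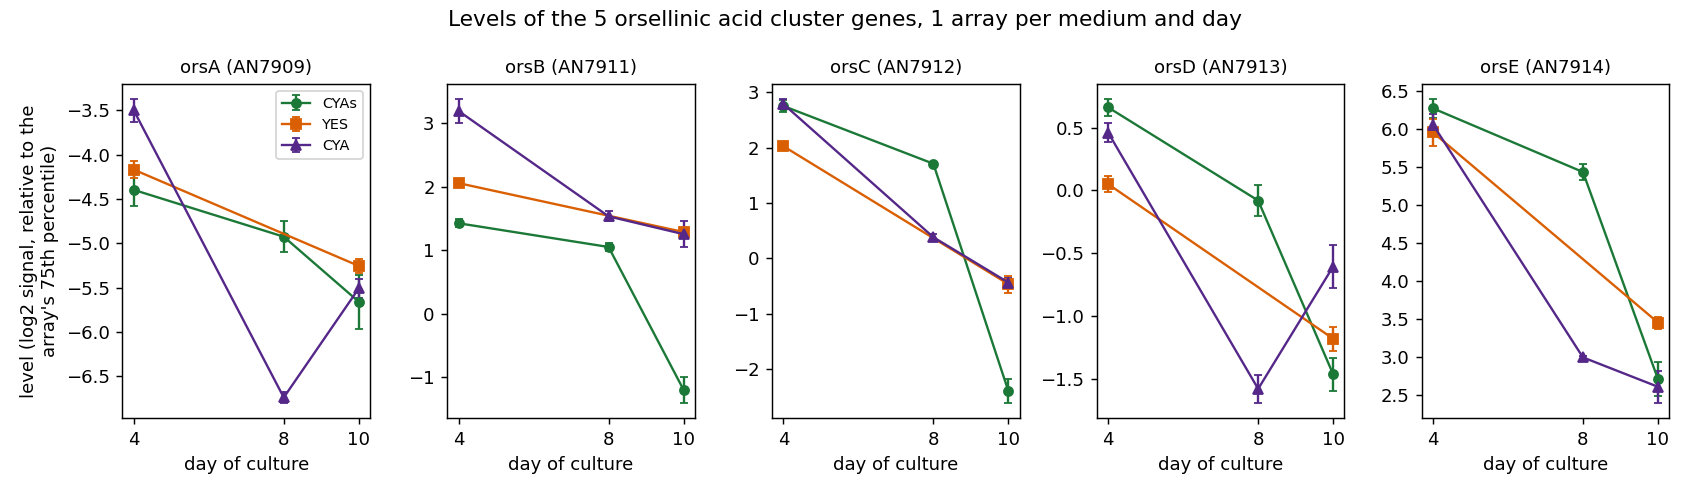
Level of each cluster gene (log2 signal relative to the array's 75th percentile, y axis) against day of culture (x axis) on CYAs, YES and CYA. Points are single arrays and bars are SDs over the 3 probes of the gene, each probe centred on its own mean. The y axes differ between panels. Every day 10 point lies below every day 4 point, and on day 8 the CYAs point lies above the CYA point for 4 of 5 genes, all but orsB.

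The synthase gene orsA encodes the polyketide synthase that makes orsellinic acid. On CYAs its level measured -4.40 on day 4, -4.93 on day 8 and -5.66 on day 10. On YES it was -5.26 on day 10, against -4.17 on day 4. CYA colonies had -3.50 on day 4, -6.74 on day 8 and -5.51 on day 10. The highest level was thus that of CYA day 4 and the lowest that of CYA day 8, and the day 4 arrays of the 3 media held the 3 highest places. This gene gave weak signals, with array means between 32.5 and 327 intensity units, and on CYA day 8 only 2 of its 3 probes were well above background. The span of 3.24 log2 units over the 8 arrays is therefore sensitive to background correction: it was 1.96 in the authors' deposited table of log2 values and 1.57 after normexp background correction.

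The gene orsB encodes an amidohydrolase-like protein. On CYAs its level measured 1.42 on day 4, 1.05 on day 8 and -1.20 on day 10. On YES it was 1.29 on day 10, against 2.05 on day 4. CYA colonies had 3.19 on day 4, 1.53 on day 8 and 1.25 on day 10. CYA day 4 stood highest and CYAs day 10 lowest, 4.39 log2 units apart. Of neighbours in the order, YES day 10 and CYA day 10 did not differ beyond the spread of the probes, nor did CYA day 10 and CYAs day 8.

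The gene orsC encodes a tyrosinase-like protein, a family of copper enzymes that oxidise phenols. On CYAs its level measured 2.75 on day 4, 1.71 on day 8 and -2.39 on day 10. On YES it was -0.46 on day 10, against 2.03 on day 4. CYA colonies had 2.79 on day 4, 0.38 on day 8 and -0.43 on day 10. Its span of 5.18 log2 units was the widest of the 5 genes, and the lowest array was again CYAs day 10. The 2 highest arrays, CYA day 4 and CYAs day 4, did not differ beyond the spread of the probes, nor did CYA day 10 and YES day 10.

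For orsD no role is given here. On CYAs its level measured 0.66 on day 4, -0.08 on day 8 and -1.46 on day 10. On YES it was -1.18 on day 10, against 0.05 on day 4. CYA colonies had 0.46 on day 4, -1.58 on day 8 and -0.61 on day 10. This was the narrowest span of the 5 genes, 2.24 log2 units, with CYAs day 4 highest and CYA day 8 lowest. The 2 lowest arrays, CYAs day 10 and CYA day 8, did not differ beyond the spread of the probes.

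The gene orsE encodes an alcohol dehydrogenase-like protein. On CYAs its level measured 6.27 on day 4, 5.43 on day 8 and 2.71 on day 10. On YES it was 3.45 on day 10, against 5.95 on day 4. CYA colonies had 6.06 on day 4, 2.997 on day 8 and 2.61 on day 10. The 3 arrays of day 4 and CYAs day 8 formed a high group between 5.43 and 6.27, and the other 4 arrays lay between 2.61 and 3.45. CYA day 4 and YES day 4 did not differ beyond the spread of the probes. The span of 3.66 log2 units compares with a median span of 1.68 over all genes tested.

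The size of the difference between day 10 and day 4 varied among the genes. It was largest for orsC on CYAs, where it was -5.15 ± 0.31 log2 units, a 35.4-fold lower level. On YES orsC differed by -2.49 ± 0.14 and on CYA by -3.22 ± 0.15. The differences of orsE were -3.56 ± 0.34 on CYAs, -2.50 ± 0.26 on YES and -3.44 ± 0.35 on CYA. Both genes were thus more than 5-fold lower on day 10 in every medium.

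The other 3 genes differed less. For orsB the values were -2.62 ± 0.27 on CYAs, -0.77 ± 0.02 on YES and -1.94 ± 0.40 on CYA. For orsD they were -2.12 ± 0.16 on CYAs, -1.23 ± 0.16 on YES and -1.07 ± 0.23 on CYA. For orsA they were -1.26 ± 0.43 on CYAs, -1.09 ± 0.14 on YES and -2.01 ± 0.18 on CYA. For orsB, orsC and orsD CYAs had the largest difference of the 3 media, and for orsA it was CYA. The CYAs and CYA differences of orsE were within the spread of the probes of each other. In the authors' deposited table the YES difference of orsA was -0.76, the CYA difference of orsD -0.90 and the YES difference of orsB -0.58, all under 2-fold. There 2 of 5 genes, orsC and orsE, were at least 2-fold lower in all 3 media, against 2.26% of all genes, and with normexp the same 2 genes were, against 1.98%.

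**Figure D2:**
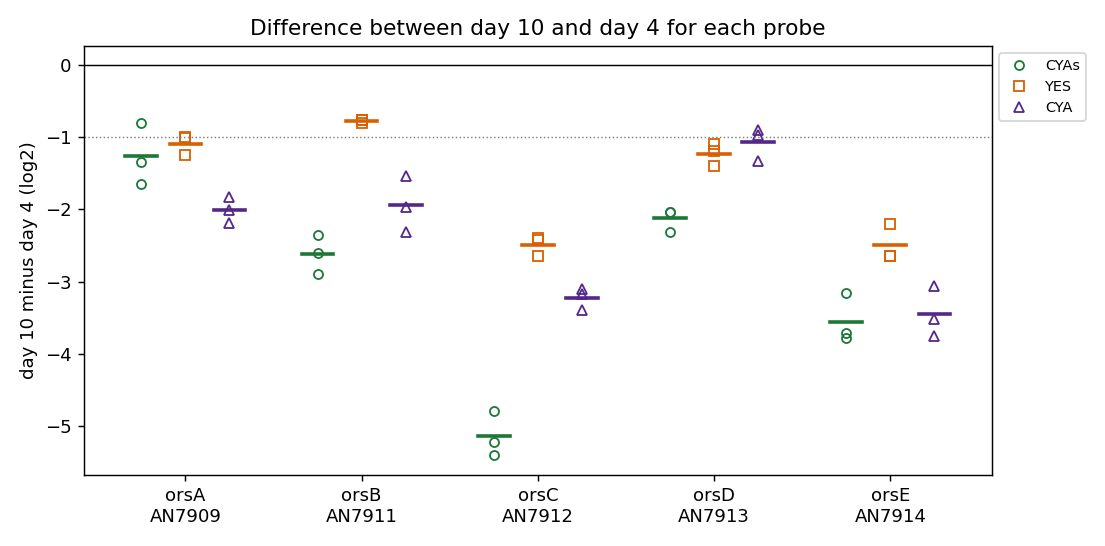
Difference in log2 level between day 10 and day 4 (y axis) for each cluster gene (x axis) on CYAs, YES and CYA. Open symbols are single probes, bars are their means and the dotted line marks a 2-fold lower level. All probes of all 5 genes lie below 0 in the 3 media, from about -0.75 (orsB on YES) to -5.41 (orsC on CYAs).

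Set against all genes, 5 of 5 cluster genes were at least 2-fold lower on day 10 than on day 4 on CYAs, where 6.17% of genes were. On YES 4 of 5 were, against 16.6% of genes, and on CYA 5 of 5, against 12.6%. The comparisons on CYAs and on YES each lie within 1 slide, and that on CYA spans both. In bulk colonies, fewer cells of a type and less RNA per cell cannot be told apart.

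An additive model of medium and day was fitted to all 8 arrays with limma, and its residual, with 3 degrees of freedom, mixes noise with whatever interaction medium and day may have. The day 10 minus day 4 estimate was -3.17 (SE 0.55, limma adjusted p = 0.12) for orsE and -3.62 (SE 0.72, limma adjusted p = 0.12) for orsC. It was -1.78 (SE 0.52) for orsB, -1.47 (SE 0.48) for orsD and -1.45 (SE 0.55) for orsA, with limma adjusted p-values of 0.16, 0.17 and 0.21. No cluster gene passed, and limma called 0 of 11109 genes (0%) in this contrast, the smallest adjusted p being 0.11. At an unadjusted p under 0.05 the model gave 2472 genes. In that count 976 genes, or 8.79% of those tested, were lower on day 10, and all 5 cluster genes were among them. The median estimate was -1.78 over the 5 genes and 0.13 over all genes. In 16 alternative fits the sign of all 5 estimates stayed negative, with orsC between -4.18 and -2.70 and orsE between -3.50 and -2.71. Some of these fits could not move the estimates: dropping the gene filter or leaving out either day 8 array left them unchanged.

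On day 8 the media differed in how far the levels had moved. On CYA all 5 genes were at least 2-fold lower on day 8 than on day 4, against 17.4% of all genes, and both arrays were on 1 slide. The differences on CYA were -3.24 ± 0.07 for orsA, -1.66 ± 0.11 for orsB, -2.40 ± 0.06 for orsC, -2.04 ± 0.07 for orsD and -3.06 ± 0.15 for orsE. That of orsA was -1.96 in the authors' deposited table and -1.57 with normexp. On CYAs 1 of 5 genes, orsC, was at least 2-fold lower on day 8, against 2.73% of all genes. There the differences were -0.53 ± 0.15 for orsA, -0.37 ± 0.01 for orsB, -1.04 ± 0.09 for orsC, -0.74 ± 0.11 for orsD and -0.84 ± 0.07 for orsE. In the authors' deposited table orsC differed by -0.86 on CYAs, under 2-fold. With the CYA day 8 share taken off, the CYAs differences were -0.27 for orsA, -0.54 for orsB, -0.82 for orsC, -0.50 for orsD and -0.54 for orsE, and none reached 2-fold. Whether the 2 media differ in this step was not tested.

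The additive fit averages these 2 courses. Its day 8 minus day 4 estimates lay between -1.79 (orsA) and -0.76 (orsB), with limma adjusted p from 0.31 to 0.54. Limma called 1 of 11109 genes (0.009%) in this contrast, which is not a cluster gene. Without the CYAs day 8 array the estimates rest on CYA alone and lay between -2.96 (orsA) and -1.58 (orsB), and without the CYA day 8 array between -0.64 (orsE) and 0.05 (orsB).

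The step between day 8 and day 10 was read in the same way, and its difference between media was not tested. On CYAs the day 10 minus day 8 difference was -4.10 ± 0.22 log2 units for orsC, -2.72 ± 0.33 for orsE, -2.25 ± 0.27 for orsB, -1.38 ± 0.25 for orsD and -0.73 ± 0.48 for orsA. Of the 5 genes, 4 (all but orsA) were at least 2-fold lower, against 6.33% of all genes. With the CYA day 8 share taken off, the 5 values lay between -4.33 (orsC) and -0.996 (orsA). On CYA the same step was -0.82 ± 0.14 for orsC, -0.39 ± 0.20 for orsE and -0.28 ± 0.29 for orsB. It was positive for orsA (1.23 ± 0.11) and orsD (0.97 ± 0.29), and 1 of 5 genes, orsA, was at least 2-fold higher, against 17.6% of all genes. In the authors' deposited table orsA was higher by 0.68 on CYA and orsD by 1.09, so that orsD passed 2-fold there in place of orsA. The value of orsD was also 1.04 with quantile scaling and 1.15 with median scaling, and that of orsA was 0.41 with normexp. The 2 CYA arrays lie on different slides, and the part of the slide in this step was not tested.

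The comparison of CYAs with CYA asks how the 2 media differ on the same day. Lower on CYAs on all 3 days was orsB, with differences of -1.77 ± 0.13 on day 4, -0.48 ± 0.03 on day 8 and -2.45 ± 0.04 on day 10. The day 10 pair shares a slide, and there orsB was 5.46-fold lower on CYAs. No cluster gene was at least 2-fold lower on all 3 days (0 of 5, against 1.15% of all genes). In the additive fit the CYAs minus CYA estimate of orsB was -1.57 (SE 0.52, limma adjusted p = 0.48). It kept this sign in 16 of 16 alternative fits, between -2.11 and -1.01. Some of these could not move it: dropping the gene filter or leaving out either YES array left it at -1.57.

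Of the other 4 genes, orsA, orsC and orsD changed sign with the day, and orsE was higher on CYAs on all 3 days. On days 4 and 10 the orsE values depended on the processing, at 0.02 each in the authors' deposited table and -0.005 and -0.012 with normexp. On day 4 orsC (-0.04 ± 0.20), orsD (0.20 ± 0.11) and orsE (0.21 ± 0.09) were close on CYAs and CYA, while orsA was lower on CYAs (-0.90 ± 0.28). Only orsB was at least 2-fold lower on that day (1 of 5, against 10.6% of genes). On day 8 orsA was higher on CYAs than on CYA by 1.81 ± 0.19, orsC by 1.33 ± 0.06, orsD by 1.50 ± 0.02 and orsE by 2.43 ± 0.12. All 4 were at least 2-fold higher, against 13% of all genes. In the authors' deposited table the value of orsA was 0.96, under 2-fold. With the CYA day 8 share taken off, the 4 values lay between 1.55 (orsC) and 2.73 (orsE), and that of orsB was -0.65. On day 10 orsC (-1.96 ± 0.29) and orsD (-0.86 ± 0.08) were lower on CYAs, while orsA (-0.15 ± 0.20) and orsE (0.10 ± 0.01) were close. With orsB, 2 of 5 genes were at least 2-fold lower on CYAs on day 10, against 6% of genes.

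**Figure D3:**
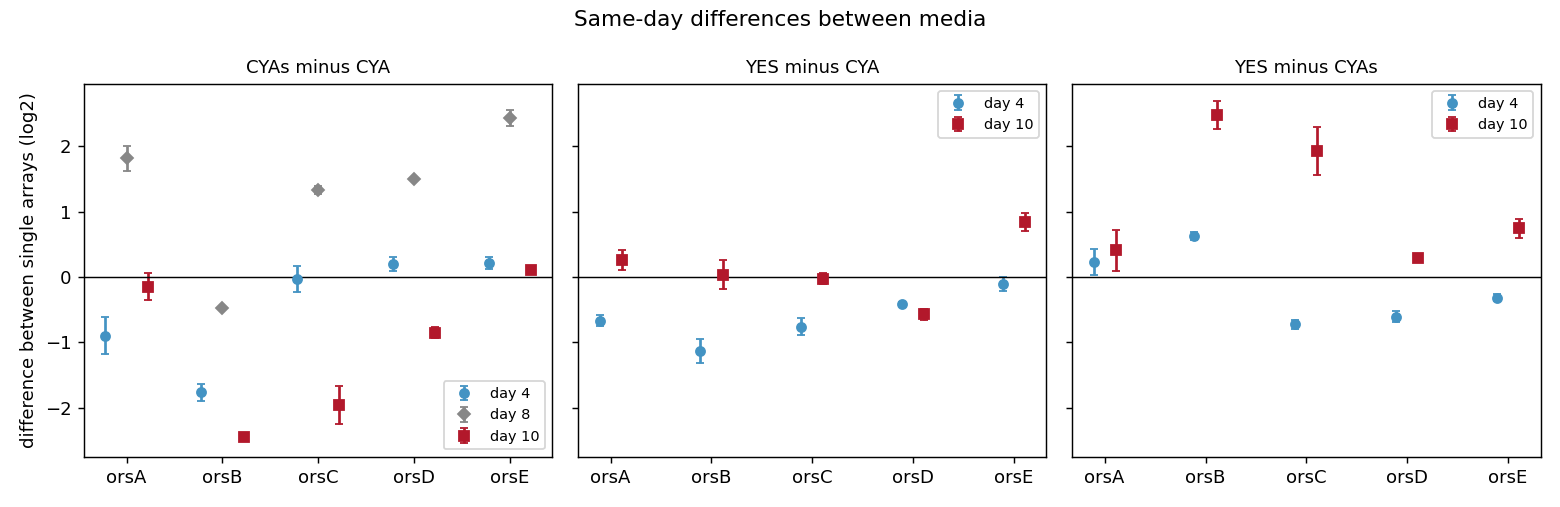
Difference in log2 level between media on the same day (y axis) for each cluster gene (x axis), as CYAs minus CYA, YES minus CYA and YES minus CYAs. Points are differences between 2 single arrays and bars are SDs over the 3 probes. In the left panel the day 8 points of orsA, orsC, orsD and orsE lie above 0, between 1.33 and 2.43, and the 3 points of orsB lie below 0.

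Averaged over days in the additive fit, the other 4 genes gave CYAs minus CYA estimates between -0.22 (orsC) and 0.92 (orsE), with limma adjusted p between 0.75 and 0.98. Without the CYAs day 8 array the estimate of orsA was -0.52 and that of orsD -0.33, both of the opposite sign to the fit with all arrays (0.26 and 0.28). The same omission gave 0.16 for orsE, against 0.92 with all arrays, -0.997 for orsC, against -0.22, and -2.11 for orsB. All of these estimates were the same when the CYA day 8 array was left out instead, so the shift is not particular to the CYAs day 8 array. Limma called 0 of 11109 genes (0%) in this contrast, with 977 at an unadjusted p under 0.05.

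YES and CYA were compared on day 4 within slide 1. The differences were -0.67 ± 0.08 for orsA, -1.14 ± 0.18 for orsB, -0.76 ± 0.13 for orsC, -0.41 ± 0.02 for orsD and -0.10 ± 0.11 for orsE. Only orsB was at least 2-fold lower, 1 of 5 genes against 8.71% of all genes, and the value of orsE was within the spread of its probes. On day 10, across slides, orsB (0.03 ± 0.22) and orsC (-0.03 ± 0.09) were within that spread. There orsA differed by 0.25 ± 0.15, orsD by -0.58 ± 0.09 and orsE by 0.84 ± 0.14. The limma estimates lay between -0.28 (orsB) and 0.75 (orsE), with adjusted p from 0.77 to 0.997. Limma called 0 of 11109 genes (0%), with 829 at an unadjusted p under 0.05. Without the CYAs day 8 array the estimates were -0.21 for orsA, -0.55 for orsB, -0.40 for orsC, -0.49 for orsD and 0.37 for orsE. That of orsA was 0.18 with all arrays and so changed sign. Leaving out the CYA day 8 array instead gave the same values.

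Between YES and CYAs the largest differences were those of day 10, where both genes concerned had their lowest level on CYAs. There orsB was higher on YES by 2.48 ± 0.22 and orsC by 1.93 ± 0.37, so that 2 of 5 genes were at least 2-fold higher, against 13.9% of all genes. The values of orsE, orsA and orsD on that day were 0.74 ± 0.14, 0.40 ± 0.32 and 0.28 ± 0.04. That of orsE was 1.18 in the authors' deposited table and 1.08 with normexp, so that 3 of 5 genes passed 2-fold there. On day 4 the 5 differences lay between -0.73 ± 0.07 (orsC) and 0.63 ± 0.06 (orsB). These pairs lie on different slides. The limma estimate was 1.29 (SE 0.61, limma adjusted p = 0.39) for orsB and between -0.47 and 0.21 for the other 4 genes. Limma called 1 of 11109 genes (0.009%), none of the cluster. Without the CYAs day 8 array the estimates were 0.32 for orsA, 1.56 for orsB, 0.60 for orsC, -0.16 for orsD and 0.21 for orsE. Those of orsA and orsE were -0.07 and -0.17 with all arrays and so changed sign. Leaving out the CYA day 8 array instead gave the same values.

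Across the 8 arrays the 5 profiles ran alike to different degrees. These arrays share media, days and slides and their levels share a scaling, so the correlations are a description only. Over the 10 pairs of genes Pearson's r ranged from 0.56 to 0.91 with a median of 0.82, and Spearman's rho from 0.43 to 0.90. The closest pairs were orsC with orsE (r = 0.91) and orsD with orsE (r = 0.91), and the lowest r was that of orsA and orsB (0.56). By Spearman's rho orsB and orsD were lowest (0.43), and by Pearson's r they were lowest in the authors' deposited table (0.57) and with normexp (0.58). Without the CYAs day 8 array the median r was 0.85. With the mean of the other 4 genes r was 0.93 for orsC, 0.91 for orsD, 0.91 for orsE, 0.80 for orsA and 0.70 for orsB. The orsA and orsB correlation was 0.29 without the CYA day 4 array, the highest array of both genes, and 0.84 without CYA day 8.

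Other genes were ranked by Pearson's r over the 8 arrays with the mean centred profile of the 5 genes, among 4516 genes spanning at least 2 log2 units. The median r was -0.27, and 16 genes (0.354%) reached 0.9. The 8 most alike were AN5831 (0.97), AN7624 (0.96), AN8764 (0.94), AN2099 (0.93), AN11584, AN7896, AN3390 and AN2286 (0.92 each). Of these 8, 7 were also among the first 8 by the values of the authors' deposited table, and 5 without the CYAs day 8 array. The reference table names AN3390 as pmeA and gives no symbol for the other 7. Of the 8, only AN7896 lies near the cluster in tag order.

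These 8 genes were chosen by their likeness to the cluster profile over the same arrays. Directions they share with the cluster therefore follow largely from that choice and are a description only. All were lower on day 10 than on day 4 in the 3 media. The differences of AN5831, the most alike, were -3.80 on CYAs, -1.25 on YES and -2.69 on CYA. The widest was AN11584, with -6.05 on CYAs, -7.86 on YES and -10.85 on CYA. All 8 were also higher on CYAs than on CYA on day 8, by 0.83 (AN7624) to 5.53 (AN11584).

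With the main processing genes of opposite profile were more frequent, with 71 of the 4516 (1.57%) at an r of -0.9 or below. This count was not made with other processings. The 4 lowest were AN9264 (-0.997), AN11576 (-0.98), AN4005 (-0.98) and AN8521 (-0.97). In the authors' deposited table AN11576 again had an r of -0.98, while AN9264, AN4005 and AN8521 had -0.47, -0.50 and -0.57, so that their likeness depends on the processing. The 5 genes most like orsA alone were AN11156 (0.97), AN8240 (0.96), AN8542 (0.95), AN9392 (0.95) and AN10921 (0.95), and these had 0.71 to 0.84 in the authors' deposited table.

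**Figure D4:**
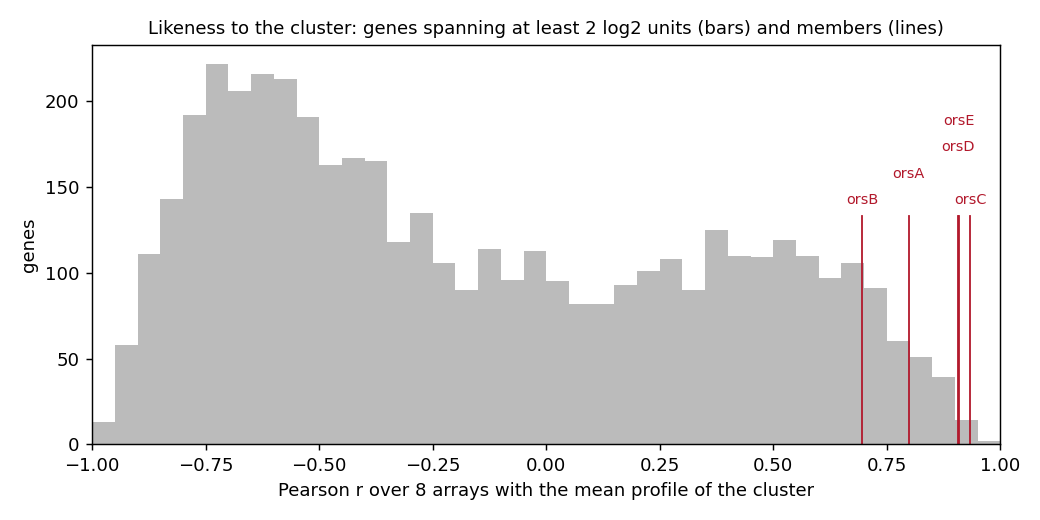
Number of genes (y axis) by Pearson's r over 8 arrays with the mean profile of the cluster (x axis) among 4516 genes spanning at least 2 log2 units. Lines mark each cluster gene's r with the mean of the other 4 genes, from 0.70 (orsB) to 0.93 (orsC).

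The neighbourhood from AN7893 to AN7925 was read in tag order for the same difference between day 10 and day 4. The array holds 32 genes of this stretch, 27 of them outside the cluster, and AN7910 was not analysed here. The nearest genes on either side did not follow the cluster: r with its mean profile was 0.23 for AN7908, -0.57 for AN7907, 0.28 for AN7915 and -0.59 for AN7916. On day 10 AN7907 was higher than on day 4 by 1.97 on CYAs, 1.21 on YES and 2.52 on CYA. The values of AN7908 were 0.47 on CYAs, -0.79 on YES and -0.72 on CYA. Those of AN7915 were -1.15 on CYAs, 1.36 on YES and -2.27 on CYA. Those of AN7916 were 1.42 on CYAs, 0.15 on YES and 0.66 on CYA.

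No gene among the 5 from AN7904 to AN7908 or the 11 from AN7915 to AN7925 was at least 2-fold lower on day 10 in all 3 media. With a share of 2.6% over all genes, so few genes cannot mark a boundary. On the far side of AN7904, 9 of the 11 genes from AN7893 to AN7903 were at least 2-fold lower in all 3 media, against 2.6% of all genes. That stretch includes the dba cluster, and r of its 11 genes lay between 0.60 and 0.92. Of these, AN7896 (r = 0.92) differed between day 10 and day 4 by -3.49 on CYAs, -3.29 on YES and -3.94 on CYA. The stretch was chosen with earlier results known, and no test was made of it.

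**Figure D5:**
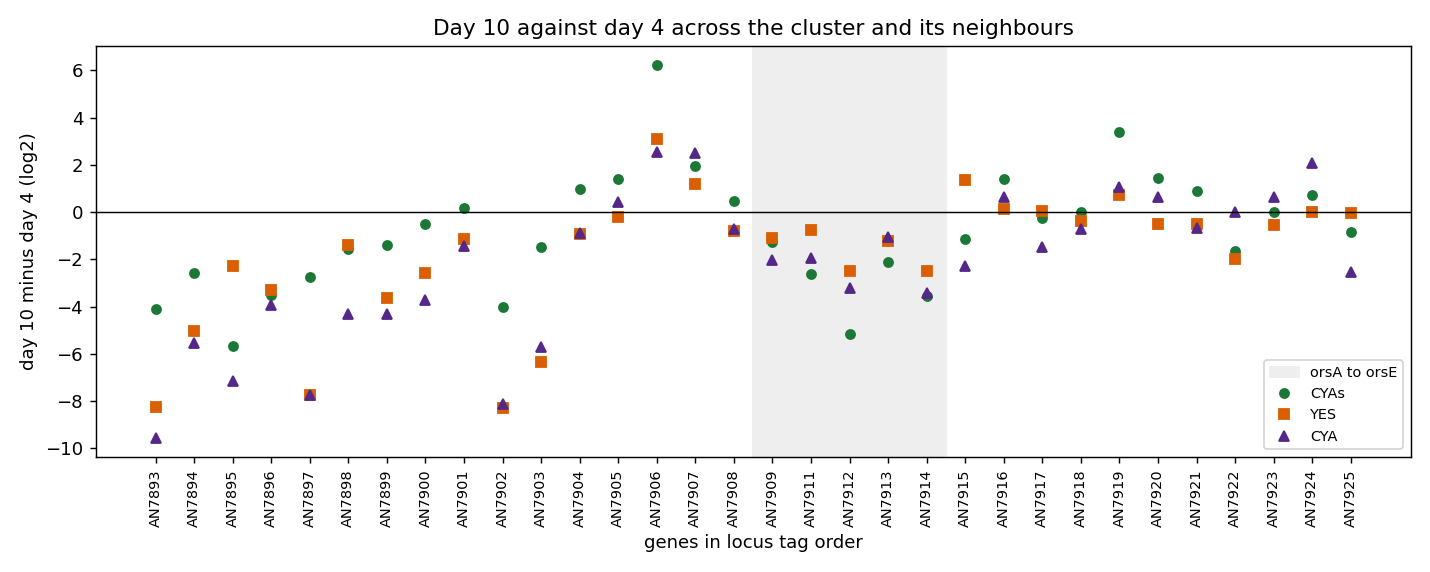
Difference in log2 level between day 10 and day 4 (y axis) on CYAs, YES and CYA for the 32 genes on the array from AN7893 to AN7925 in locus tag order (x axis, equal steps, not distances). The shaded band holds orsA to orsE, where all points lie below 0. Points of the 5 genes to its left and of the 11 to its right scatter on both sides of 0.

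A list of 17 known or proposed regulators of the cluster was also read. It holds gcnE and adaB of the SAGA/ADA complex, basR, cpcA, the chromatin genes cclA, hepA, rpdA and hdaA, the velvet genes veA and velB with laeA, and 6 subunits of the COP9 signalosome. Limma called 0 of 17 in any of the 5 contrasts, where it called 0 or 1 of 11109 genes each. None was at least 2-fold lower on day 10 in all 3 media, against 2.6% of all genes. At such shares a count of 0 among 17 genes says little about them. At day 10 against day 4 12 estimates were positive and 5 negative, while 42.9% of all genes had a negative estimate. The median was 0.07, against 0.13 over all genes. In this contrast no regulator had an unadjusted limma p under 0.05, against 22.3% of all genes. At day 8 against day 4, 1 of 17 did, with a lower level on day 8, against 15.5% of all genes. Their spans ran from 0.37 to 2.80 log2 units.

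The widest span was that of basR (AN7174), the Myb-type factor known to act on the cluster in bacterial co-culture. On CYAs its level measured -0.51 on day 4, -1.31 on day 8 and -2.19 on day 10. On YES it was -0.98 on day 10, against -1.32 on day 4. CYA colonies had -0.31 on day 4, -2.55 on day 8 and -3.11 on day 10. Thus basR was lower on day 10 on CYAs and CYA, like the cluster, but not on YES, where all 5 cluster genes were lower. Its r with the cluster profile was 0.76, and the additive estimate was -1.38 (SE 0.63, limma adjusted p = 0.27).

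The next widest spans among the regulators were those of veA and cpcA. The velvet gene veA (AN1052), which links light to development and metabolism, spanned 2.68, with its lowest level, -1.85, on CYA day 8, and r was -0.03. The amino acid starvation factor cpcA (AN3675) spanned 1.46, with an additive day 10 minus day 4 estimate of 0.68 (SE 0.28, limma adjusted p = 0.23) and r of -0.42. The histone acetyltransferase gene gcnE (AN3621) spanned 1.08, with r of -0.02.

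A list of 15 genes taken as non-reducing polyketide synthases, the enzyme class of orsA, was also read, and the class of each was not checked. Limma called none of them in any of the 5 contrasts, where it called 0 or 1 of 11109 genes each. At day 10 against day 4 11 estimates were negative and 4 positive, while 42.9% of all genes had a negative estimate. The median was -1.56, against 0.13 over all genes. At least 2-fold lower on day 10 in all 3 media were 3 of the 15 (orsA, AN3230 and AN7903), against 2.6% of all genes, and orsA did not meet this in the authors' deposited table. The widest spans were those of AN6000 (11.73), AN3230 (8.94) and AN7071 (6.98), against 3.24 for orsA. The day 10 minus day 4 estimates were 6.63 (SE 1.88, limma adjusted p = 0.15) for AN6000, -4.51 (SE 0.99, limma adjusted p = 0.12) for AN3230 and -3.10 (SE 1.03, limma adjusted p = 0.18) for AN7071.

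Signals of marker genes of other cell types moved with age and medium, and the part of colony make-up in these differences was not tested. Levels are given here as sums over each list of signals relative to the array's 75th percentile. Such a sum is carried by its brightest genes, and orsE made up 61.7% to 87.5% of that of the cluster. The sum of the 5 cluster genes was 71.2 to 88.1 on day 4, 12.5 to 49.5 on day 8 and 7.56 to 14.6 on day 10. That of 7 genes of conidia and conidiophores, that is asexual spores and the stalks that bear them, measured 43.4 on day 4, 26.1 on day 8 and 39.2 on day 10 on CYAs. YES colonies had 1.13 on day 10, against 42.2 on day 4, and CYA colonies had 9.66 on day 4, 1.23 on day 8 and 1.15 on day 10. That of 3 genes of fruiting bodies and Hülle cells, which nurse them, was 3.94 to 9.58 on day 4, 30.8 to 95.9 on day 8 and 5.05 to 112 on day 10. That of 2 genes of autolysis, the self-digestion of old mycelium, was 0.541 to 1.70, 3.04 to 15.4 and 1.91 to 11.2 on these days. On day 8 CYAs had the lower sum of the fruiting body and autolysis lists (30.8 and 3.04) and CYA the higher (95.9 and 15.4). No share of CYA day 8 signal was taken off these CYAs sums. How far they come from that share was not tested. The brightest gene made up 41.3% to 72.5% of the sum of the conidia list and 39.6% to 95.7% of that of the fruiting body list. No defining marker of these lists was at 0, and each was above background on 8 arrays.

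Limma called none of these markers in any of the 5 contrasts, where it called 0 or 1 of 11109 genes each. The largest spans were those of AN7349 (12.1), a Hülle cell glucanase gene, dewA (9.95) and rodA (8.76), the spore hydrophobin genes. The spore pigment synthase gene pksP spanned 3.98, the catalase-peroxidase gene cpeA 3.01 and nsdD, a regulator of sexual development, 1.48. The genes of a list did not all move alike. Of the 7 conidia genes, 6 had negative day 10 minus day 4 estimates and 1 positive, with -4.77 for rodA, -0.11 for wetA and 0.46 for abaA. Of the 3 fruiting body genes, 2 were positive and 1 negative, with 7.27 for AN7349 and -0.07 for nsdD. The 2 autolysis genes had day 10 minus day 4 estimates of 2.81 (SE 0.59) for mep20 and 2.32 (SE 0.42) for the chitinase gene chiB, with limma adjusted p of 0.12 each.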

How the data were processed

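Total RNA of 8 whole-colony samples was labelled with Cy3 and hybridised to 1-colour Agilent arrays, per the labels. The intensity values of each spot were made with Agilent Feature Extraction 10.5.1.1, per the file headers, and the background correction behind the processed signal is not named in those sources. The log2 values per gene that the authors deposited served as an alternative. For it, limma and RMA are listed in the submitters' processing notes, without versions and without saying what each did. The column medians of that table lay between 9.66 and 9.69, its values correlated at 0.981 to 0.984 with normexp-corrected, quantile-normalized signals of the same arrays across genes, and it was taken to hold 1 log2 signal per array and gene, uncentred.

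Each array held 34210 features, with 32793 gene probes. Controls were dropped, as were 0 to 19 outlier spots on each array. Levels were log2 processed signals minus the array's 75th percentile, and probes of a gene were averaged. Genes entered the test with at least 1 probe well above background on 2 or more arrays, and 18 genes did not qualify. Medium and day were fitted as additive factors with limma 3.58.1 in R 4.3.3 (3 residual and 2.248 prior degrees of freedom), with Benjamini-Hochberg adjustment over all genes and a threshold of 0.05. The gene test was tested on simulated data with independent noise and no differences between media or slides. That setting differs from these arrays, so it cannot show how the test performs on them. Precision is limited by how few arrays there are. Of the genes, 10413 matched the reference annotation, assembly ASM1142v1, which gave 779 symbols. The cluster genes have none there, and their names are those of the literature.

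The cluster genes, the lists of regulators, synthases and markers, and the rules for likeness and neighbours were chosen with earlier results of these data known. Named genes are all 5 cluster genes, the 8 most like and 4 most unlike their mean profile, the 5 most like orsA, the 2 nearest neighbours on each side and any neighbour with r of at least 0.9, and of each list the 3 with the widest span. The genes gcnE, abaA and wetA, the per-list count of synthases lower in all 3 media and AN7903 were named after their values were seen. From the list of fruiting body genes 1 gene was left out because the reference gives it another name. In the autolysis list 1 gene is not reported here. Alternatives were other background corrections, scalings and probe summaries, the authors' table, the slide as a block (statmod 1.5.0) and each array left out.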

Additional observations from a re-analysis of the deposited data

Results flagged for a closer look

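Between day 8 and day 10 the synthase gene orsA (AN7909) moved in opposite directions on 2 media, with a difference of -0.73 on CYAs and 1.23 on CYA (log2 units, day 10 minus day 8). The gene orsD (AN7913) did the same, with -1.38 on CYAs and 0.97 on CYA. With 1 array per medium and day the difference between the media was not tested. The CYA pair lies across 2 slides and the CYAs pair within 1. The CYA value of orsA was 0.68 in the authors' deposited table, and that of orsD was 1.09.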

How the results depend on the processing

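The day 10 minus day 4 estimates of all 5 cluster genes and the CYAs minus CYA estimates of orsB and orsE kept their sign in all 16 alternatives (CYAs minus CYA of orsE ran from 0.16 to 1.38), and limma called no cluster gene in any of them. Not all alternatives could move an estimate. Dropping the gene filter moved none, omitting a YES array did not move CYAs minus CYA, and omitting a day 8 array did not move day 10 minus day 4. Several media estimates changed sign, among them that of orsD for YES minus CYAs, which was -0.47 in the main fit. For CYAs minus CYA, orsA gave -0.035 with normexp and -0.046 in the authors' table, and orsD gave -0.53 with slide as a fixed block and -0.33 as a random block. For YES minus CYA, orsC gave 0.023 in the authors' table, 0.11 with the median of probes, 0.58 with the fixed and 0.43 with the random block, and orsD 0.32 and 0.20 with these blocks. For YES minus CYAs, orsA gave 0.051 with normexp, 0.25 with quantile scaling, 0.085 in the authors' table and 0.22 and 0.14 with the blocks, orsD 0.85 and 0.53 with the blocks, and orsE 0.074 in the authors' table and 0.46 and 0.30 with the blocks. The cause was not tested. Leaving out 1 array at a time gave CYAs minus CYA estimates of -0.52 to 0.79 for orsA, -0.997 to 0.70 for orsC and -0.33 to 0.78 for orsD. YES minus CYA ran from -0.21 to 0.85 for orsA, -1.03 to 0.48 for orsB, -0.86 to 0.84 for orsC and -0.49 to 0.32 for orsD. YES minus CYAs ran from -0.56 to 0.32 for orsA, -0.94 to 1.06 for orsC and -0.74 to 0.34 for orsE, and day 8 minus day 4 from -1.58 to 0.049 for orsB. Genes called numbered 1 for YES minus CYA with quantile scaling. For YES minus CYAs they numbered 0 with normexp, the authors' table and either block, and 0 to 155 with 1 array left out. For day 8 minus day 4 they numbered 0 with quantile scaling, the authors' table and the fixed block, and 0 to 73 with 1 array left out. No paired analysis was possible because the replicate numbers only name arrays in order of deposition. Signals of orsA were weak, which limits its values.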
